A study of Mus musculus with 8 samples.

Results

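The cytosolic ribosome is built from ribosomal RNA and a fixed set of proteins, one group in the small 40S subunit, which reads the mRNA, and another in the large 60S subunit, which joins the amino acids. Cytosolic ribosomal protein genes were taken as the protein-coding mouse genes whose symbol is Rpl or Rps followed by a number, with an a or x where one follows, together with Rplp0, Rplp1, Rplp2 and Rpsa, and without pseudogenes. This gave 76 genes, 30 of the 40S and 46 of the 60S subunit, out of 54532 rows of the count table, and all 76 were among the 15857 genes with enough counts to be tested. The rule used symbols only and no measured value. Rps3a1 and Fau, which also encode ribosomal proteins, fell outside the symbol rule and are given separately.

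RNA was sequenced from lens capsules of wild-type C57BL/6 mice aged 6 to 8 weeks, taken 7 days after surgery. In the 4 ASC libraries the eyes had received the injury that gives the ASC model, used by the submitters as a mouse model of fibrotic cataract, in which a 26-gauge needle passed through the cornea opens the front of the lens capsule. In the 4 sham libraries only the cornea had been cut and the capsule was left closed. The injury carries no transgene, both groups had a corneal wound, and the labels do not state whether a library holds 1 capsule or pools several. The replicates are described as biological, and the library totals lay between 14420494 and 21141582 counts. The capsule carries the lens epithelium with attached fibre cells: all 8 lens epithelium markers had counts and summed to 2248 to 2692 CPM (counts per 1000000 of the library size) in ASC libraries and 2503 to 2769 CPM in sham libraries, while 19 crystallin genes took 31.2% to 39.1% of the counts in ASC libraries and 28.5% to 37.7% in sham libraries.

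Ribosomal protein mRNAs are among the most abundant messages of most cells. In mammals they begin with a run of pyrimidines, the 5′ terminal oligopyrimidine (TOP) tract, through which mTORC1 and the protein Larp1 set their translation and stability together. Because these messages are short, spliced and abundant, they have been copied back into the genome many times as intronless pseudogenes, and a sequencing read can match the gene and its copies equally well.

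The start sites are shown first because they hold a motif known for these genes, and the copies next because they bear on the values of single genes. RefSeq promoter windows on GRCm38.p6 were matched for 56 of the 76 genes. The letters CTTTCC, a short pyrimidine run typical of the start of a TOP mRNA, stood in the 30 bases around the start site (10 before it and 20 from it, sense strand) of 9 of these 56 genes. Per window the share was 13.64% for the ribosomal protein genes against 1.285% of all 32851 windows in the table. Windows of 5 of these genes that are described below follow, each written 5′ to 3′ with the match in capitals.
Rpl28, chr7:4792955-4792984, plus strand: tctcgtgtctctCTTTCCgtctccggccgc
Rpl35a, chr16:33056472-33056501, plus strand: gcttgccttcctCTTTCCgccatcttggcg
Rpl38, chr11:114668570-114668599, plus strand: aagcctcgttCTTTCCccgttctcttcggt
Rps27, chr3:90213629-90213658, minus strand: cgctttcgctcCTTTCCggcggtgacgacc
Rps10, chr17:27635225-27635254, minus strand: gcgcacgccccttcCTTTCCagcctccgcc
In each of them the match lies inside a longer stretch rich in C and T. Over the whole promoter window of 300 bases (250 before the start and 50 from it, both strands), CTTTCC stood in 29 of the 56 genes, or 50% of their windows against 26.56% of all windows. CCGGAAG, the core bound by Ets family factors, stood in 23 of the 56 genes, or 36.36% of their windows against 8.858% of all windows, and TATAAA, the TATA box, in 6 of the 56, or 9.09% against 13.62%. None of these motifs contains another, and a match is a description of the window only.

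The coding sequences show how close the copies are. Of the 76 genes, 70 shared at least 1 window of 100 coding bases with a transcript of another gene in GENCODE mouse release 21, and in 24 genes every such window was shared. Rps10 and its processed copy Rps10-ps2 on chromosome 16 were identical at 490 of 495 coding bases. Bases 389 to 448, counted from the A of the start codon, hold 4 of the 5 differences, in capitals.
Rps10, chromosome 17: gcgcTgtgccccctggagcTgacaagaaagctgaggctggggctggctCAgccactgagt
Rps10-ps2, chromosome 16: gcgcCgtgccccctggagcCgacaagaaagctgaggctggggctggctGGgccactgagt
The 5 substitutions from gene to copy were T393C, T408C, C437G, A438G and G473A. Rpl21 and Rpl21-ps15 on chromosome X differed at 3 of 480 coding bases, T336C, G378A and T432C, of which 2 lie in bases 327 to 386.
Rpl21, chromosome 5: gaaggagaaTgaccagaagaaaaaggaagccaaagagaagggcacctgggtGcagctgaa
Rpl21-ps15, chromosome X: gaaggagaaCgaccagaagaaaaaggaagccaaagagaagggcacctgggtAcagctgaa
Rps27 on chromosome 3 and its retrocopy Rps27rt on chromosome 9 were identical over all 252 coding bases, and so were Rps12 and Rps12-ps3 on chromosome 19 over 396. The treatment of reads that match several genes by the authors' counting is not stated in the sources used, so the counts of such genes and their copies are uncertain one by one.

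The study set ASC against sham to see how expression differs in the injury model, which for these genes asks whether the supply of ribosomal protein mRNA differs. Summed over the 76 genes, the level was 30911, 25541, 28191 and 25816 CPM in the 4 ASC libraries, against 22832, 22270, 18342 and 27946 CPM in the 4 sham libraries, all CPM being taken over library sizes scaled by edgeR's TMM method. The ASC libraries lay above sham 1, 2 and 3, and sham 4 lay inside the ASC range. The mean was 27615 ± 2499 CPM in ASC and 22848 ± 3942 CPM in sham (SD, n = 4 each), a ratio of 1.21, and without sham 4 the sham mean was 21148 CPM and the ratio 1.31. As a plain share of all counts, with no scaling, the genes took 2.67%, 2.70%, 2.56% and 2.61% in ASC, against 2.31%, 2.42%, 2.11% and 2.60% in sham, a ratio of 1.12. In whole tissue, more cells of a kind and more RNA per cell cannot be told apart.

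**Figure D1:**
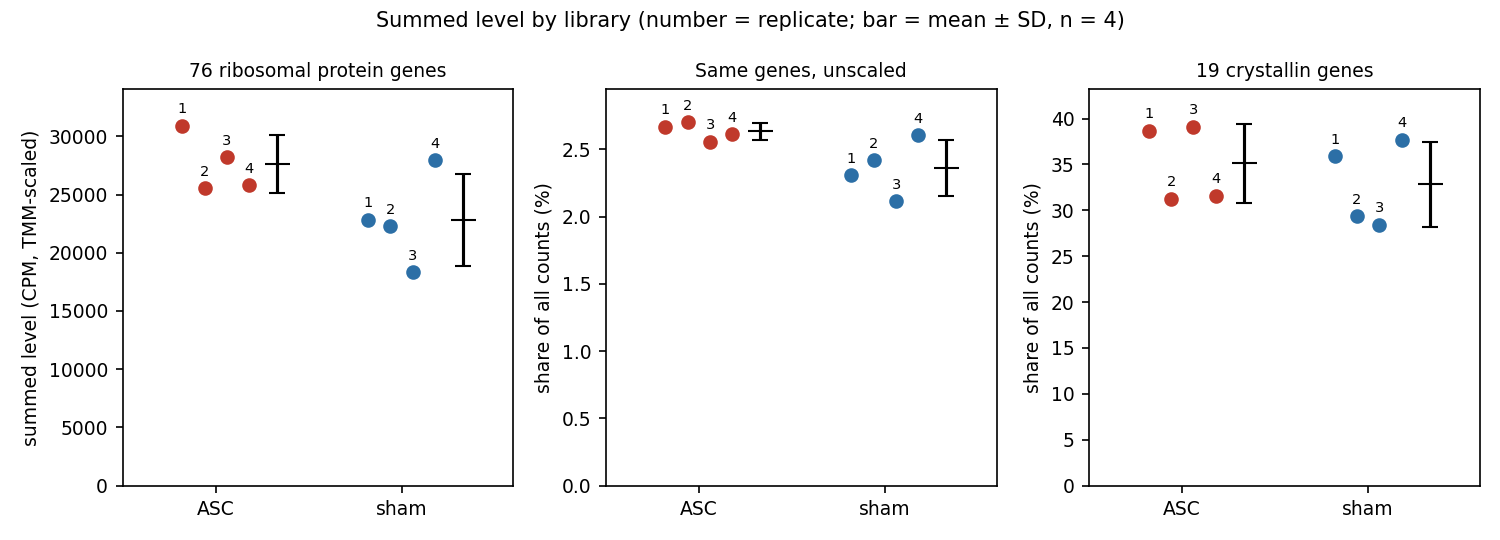
Summed level of the 76 ribosomal protein genes as TMM-scaled CPM (left), their share of all counts in percent (middle) and the share of the 19 crystallin genes in percent (right), by library. Points are single libraries numbered by replicate, bars are mean ± SD over 4 libraries, and sham 4 at 27946 CPM is the one sham library within the ASC range of 25541 to 30911 CPM.

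Gene by gene, 0 of the 76 passed edgeR's quasi-likelihood test at an adjusted p of 0.05, where 1.02% of all genes tested passed, 0.631% higher and 0.391% lower in ASC. The smallest adjusted p of a ribosomal protein gene was 0.0988. At an unadjusted p of 0.05, 25 had higher values in ASC, against 6.82% of all genes, and 1, Rps10, lower values, against 7.90%. DESeq2 called 4 of the 76 higher in ASC, namely Rpl28, Rpl34, Rplp2 and Rps3, and 0 lower, at backgrounds of 2.12% and 1.62%, and limma-voom called 0 in either direction, at backgrounds of 0.41% higher and 0.265% lower. The genes shared 1 direction: 73 of 76 had a log2 fold change (ASC over sham) above 0, against 51.4% of all genes tested. Their median log2 fold change was 0.27, a 1.21-fold higher level in ASC, beside a median of 0.008 over all genes tested.

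The fold changes were narrow. Of the 76 log2 fold changes, 64 lay within 0.15 of the median, and the median standard error (SE) of a single one was 0.147. The 95% interval included 0 for 50 genes, lay above 0 for 25 and below 0 for 1. The 40S subunit had 27 of its 30 genes above 0, with a range from -0.79 to 0.47 and a median of 0.28, and the 60S subunit all 46, with a range from 0.08 to 0.73 and a median of 0.27. The ratio of summed 40S to summed 60S CPM was 0.615, 0.639, 0.616 and 0.629 in ASC, against 0.619, 0.619, 0.623 and 0.635 in sham, and the groups overlapped.

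**Figure D2:**
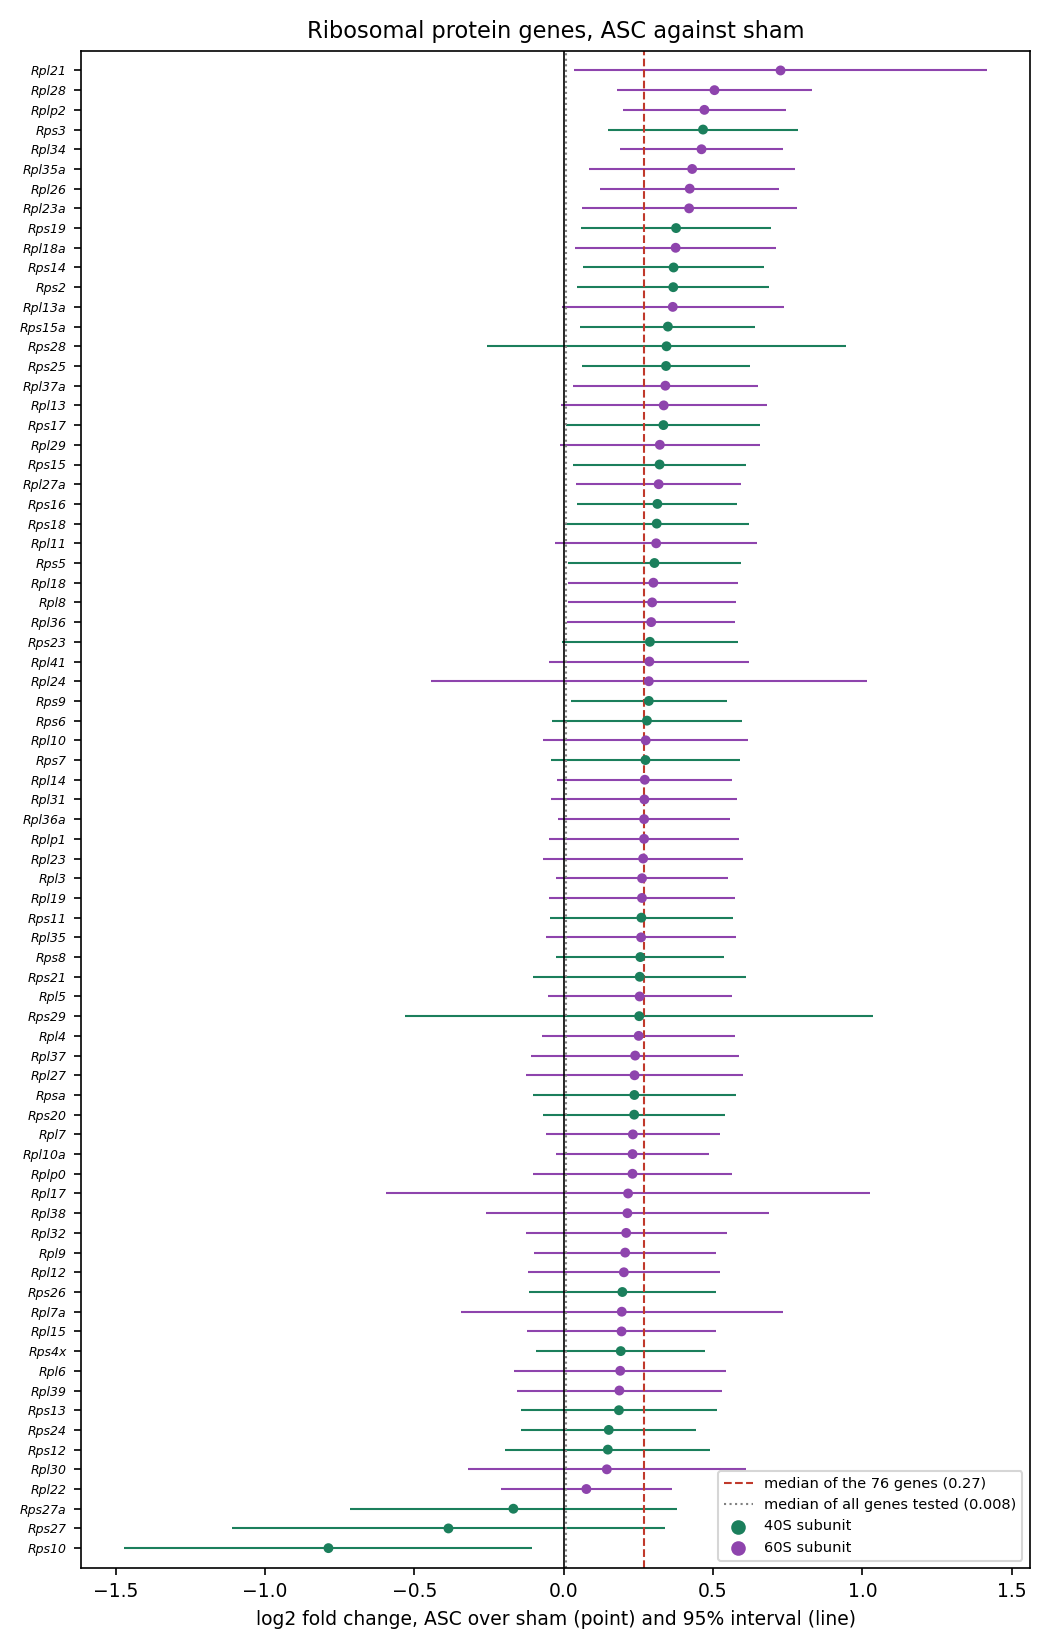
Log2 fold change of each of the 76 genes, ASC over sham, as points with 95% intervals as lines, coloured by ribosomal subunit. The dashed line is the median of the 76 genes (0.27) and the dotted line that of all genes tested (0.008); Rps10, Rps27 and Rps27a are the 3 genes left of 0.

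The level moved between libraries of the same group in nearly all genes at once. Within sham, 71 of the 76 genes were lowest in sham 3 and 68 were highest in sham 4. Within ASC, 54 were highest in ASC 1 on the TMM scale, where ASC 1 had the lowest factor of all libraries (0.864). As an unscaled share of counts, the summed genes were highest in ASC 2 (2.70%, against 2.67% in ASC 1). Over the 8 libraries the median SD of a gene's log2 CPM was 0.27, and 0.115 once each library's median over the 76 genes was subtracted. The share of crystallin counts was also lowest in sham 3 among sham libraries (28.5%) and highest in sham 4 (37.7%), the TMM factor was highest in sham 3 (1.15) and lowest in sham 4 (0.934), and the 8 retina markers, which summed to 2008 to 3814 CPM in ASC libraries and 1027 to 4327 CPM in sham libraries, were highest in sham 3; none of these markers was at 0 in every library. The 6 red cell markers summed to 73.9 to 370.2 CPM in ASC and 40.1 to 62.8 CPM in sham, and the 7 pigment cell markers to 181 to 656 CPM in ASC and 89.2 to 255 CPM in sham. The part of these in the difference was not tested.

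The size of the difference moved with the highest and the lowest sham library. Without sham 4 the median log2 fold change of the 76 genes was 0.38, the 4 ASC libraries lay above the 3 other sham libraries in 49 of the 76 genes (background 5.89%) and below them in 0 (background 7.79%), and 56 genes had an unadjusted p under 0.05 with higher values in ASC (background 6.81% in the same fit), although 0 passed after adjustment. Without sham 3 it was 0.18 with 7 such genes (background 7.52%), and with both left out it was 0.29. With library totals alone, in place of TMM, it was 0.16, while the median over all genes was -0.12.

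The P stalk, made of Rplp0, Rplp1 and Rplp2, recruits the elongation factors to the ribosome. Rplp2 was the 1 gene of the 76 with no overlap between groups (the 4 ASC libraries lay above the 4 sham libraries in 3.39% of all genes tested and below them in 5.67%). It had 246, 255, 202 and 207 CPM in ASC, against 184, 152, 137 and 184 CPM in sham (log2 fold change 0.47, SE 0.12, adjusted p = 0.0988). Rplp0 had 1839.8, 1453.8, 1615.6 and 1368.7 CPM in ASC, against 1353.7, 1307.6, 1062 and 1628.5 CPM in sham, with sham 4 above 3 of the ASC libraries (0.23, SE 0.15, adjusted p = 0.524). Rplp1 had 773, 668, 794 and 758 CPM in ASC, against 580.3, 582, 508 and 813 CPM in sham, with sham 4 the highest library of all (0.27, SE 0.15, adjusted p = 0.427).

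Next to Rplp2, and leaving Rpl21 to a later paragraph, the largest positive fold changes were those of Rpl28, Rps3, Rpl34 and Rpl35a. Rpl28, a 60S protein found only in eukaryotes, had 351, 288, 354 and 354 CPM in ASC, against 253, 205, 186 and 306 CPM in sham (0.50, SE 0.15, adjusted p = 0.141). ASC 2 was the low library of its group and fell below sham 4. Rps3, which lines the channel where mRNA enters the 40S subunit, had 884, 654, 737 and 741 CPM in ASC, against 532, 542, 434.5 and 675 CPM in sham (0.47, SE 0.15, adjusted p = 0.166), and sham 4 exceeded 1 ASC library. Rpl34, of the 60S subunit, had 212, 174, 209 and 186 CPM in ASC, against 126, 143, 123 and 176 CPM in sham (0.46, SE 0.12, adjusted p = 0.105); the groups met only where ASC 2 was just under sham 4. Rpl35a, one of the genes mutated in human Diamond-Blackfan anemia, had 157, 153, 133.2 and 120.4 CPM in ASC, against 100, 110, 75.9 and 133.2 CPM in sham (0.43, SE 0.16, adjusted p = 0.237). Sham 4 was again the sham library within the ASC range.

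Several of the best studied ribosomal protein genes had fold changes near the median. Rpl5 and Rpl11 bind 5S ribosomal RNA and, when set free, the p53 inhibitor Mdm2. Rpl5 had 740.6, 529, 622 and 527 CPM in ASC, against 511, 526, 418 and 573 CPM in sham (0.25, SE 0.14, adjusted p = 0.437). Rpl11 had 501, 451, 478 and 440.4 CPM in ASC, against 395, 352, 272 and 490.2 CPM in sham (0.31, SE 0.16, adjusted p = 0.385). Both pairs of groups overlapped through sham 4. Rps6, the target of the S6 kinases below mTORC1, had 712, 493, 639 and 557 CPM in ASC, against 492, 474, 415 and 599 CPM in sham (0.28, SE 0.15, adjusted p = 0.408). Rpsa, also known as the laminin receptor precursor, had 991, 700.2, 909.7 and 805 CPM in ASC, against 719.7, 680.3, 582 and 909 CPM in sham (0.24, SE 0.16, adjusted p = 0.520). In both genes ASC 2, the lowest ASC library, and ASC 4 lay below sham 4, and for Rpsa ASC 2 lay below sham 1 as well. Rps19, the gene most often mutated in Diamond-Blackfan anemia, had 340.5, 274, 300.2 and 303 CPM in ASC, against 235, 228, 175 and 299.6 CPM in sham (0.38, SE 0.15, adjusted p = 0.261), and here too ASC 2 lay below sham 4. Of the 23 genes linked to that anemia among the 76, 0 passed the test (edgeR) and DESeq2 called 0. Of them, 21 had positive log2 fold changes (background 51.4%), and their median was 0.26. At an unadjusted p of 0.05, 7 had higher and 1 lower values (backgrounds 6.82% and 7.90%).

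Levels per kilobase of transcript covered a wide range. The length used was the median over a gene's annotated protein-coding transcripts. It was shorter than the coding sequence for Rplp0 (854 against 951 bases), Rpl3 (816 against 1209) and Rpl13a (495 against 609). The levels per kilobase of these genes are therefore too high. The median over the 76 genes was 450 CPM per kilobase in ASC and 367 in sham, and 69 genes reached 100 CPM per kilobase in each group. On these lengths the highest was Rplp0, with 1838 ± 243 CPM per kilobase in ASC and 1567 ± 272 in sham (SD, n = 4 each). Rplp1 followed with 1500 ± 111 in ASC and 1244 ± 266 in sham, and Rpl41, which encodes the shortest protein of the ribosome, with 1404 ± 30.6 in ASC and 1151 ± 280 in sham. Rplp0 exceeded Rplp1 by more than the SD of either in both groups, but the short length used for Rplp0 leaves the size of this lead unsettled. Rplp1 and Rpl41 differed by less than the SD of Rplp1. Rpl13, Rpl7 and Rpl3, all of the 60S subunit and Rpl3 next to the site of peptide bond formation, had 974 ± 122, 908 ± 114 and 901 ± 110 CPM per kilobase in ASC and 773 ± 170, 773 ± 97.7 and 751 ± 96.5 in sham. Rpl13 and Rpl7 could not be ordered beyond their spread. The place of Rpl3 beside them rests on a length well below its coding sequence, over which its level would be lower. At the other end, the row of Rpl24, which forms a bridge between the subunits, had only 13 to 28 counts per library. Its level was 1.89 ± 0.54 CPM per kilobase in ASC and 1.55 ± 0.0927 in sham. Rps10 had 3.65 ± 1.31 in ASC and 6.36 ± 2.00 in sham, Rpl13a, which in human cells also silences inflammatory mRNAs, 41.9 ± 8.64 in ASC and 32.6 ± 6.28 in sham, and Rpl21 70.1 ± 26.5 in ASC and 42.4 ± 8.37 in sham. All of the last 4 shared coding sequence with another annotated gene.

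Rps10, Rps27 and Rpl21, the genes farthest from the median, had a large part of their family's counts in copies. Copies were taken as pseudogenes, or other rows of the Rpl and Rps families, that share at least 1 window of 100 coding bases with the gene, and 433 of them had a row in the table. They held 7.66% of the counts of genes and copies together, but 96.8% for Rps10, 76.7% for Rpl24, 74.2% for Rpl17, 73.5% for Rpl21, 42.3% for Rpl7a and 37.7% for Rps27.

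Rps10, a protein of the head of the 40S subunit, had 3.57, 2.72, 2.14 and 1.48 CPM in ASC, against 2.86, 3.64, 4.795 and 5.95 CPM in sham (log2 fold change -0.79, SE 0.31, adjusted p = 0.271). The sham values were higher as a group, with an overlap through ASC 1. Rps10-ps2, which differs at the 5 coding bases listed above, had 130.4, 84.4, 110.7 and 111 CPM in ASC, against 79.6, 73.2, 71.7 and 114 CPM in sham (0.37, SE 0.17, adjusted p = 0.353). Gene and copies summed to 143, 101, 121 and 120.1 CPM in ASC, against 89.6, 82.1, 82.0 and 129 CPM in sham (0.35, SE 0.16, adjusted p = 0.335). The sum thus had the opposite sign from the row of the gene itself.

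Rps27, a zinc finger protein of the 40S subunit, had 616, 2299, 1289 and 1167 counts in ASC, against 2576, 2020, 2177 and 1271 counts in sham. Rps27rt, whose coding sequence is identical, had 1998, 359, 1678 and 1414 counts in ASC, against 306, 1209, 149 and 961 counts in sham. ASC 1 had the lowest Rps27 and the highest Rps27rt count, and the 3 libraries highest in Rps27, sham 1, ASC 2 and sham 3, were the 3 lowest in Rps27rt. On the CPM scale Rps27 had a log2 fold change of -0.39 (SE 0.31, adjusted p = 0.626) and Rps27rt one of 1.19 (SE 0.88, adjusted p = 0.598). Rps27 and its copies summed to 167, 145, 172 and 174 CPM in ASC, against 135, 151, 113 and 167 CPM in sham (0.22, SE 0.12, adjusted p = 0.438). In ASC the sum thus spanned less than either row. The rows there ran from 39.3 to 125 CPM for Rps27 and from 19.5 to 127 CPM for Rps27rt. In sham the Rps27 row, from 94.3 to 121 CPM, spanned less than the sum. The Rps27rt row, from 7.22 to 71.5 CPM in sham, spanned more.

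Rpl21, a 60S protein, had the largest positive value of the 76 genes when its row was taken alone. Its row had 104, 67.8, 88.8 and 38.6 CPM in ASC, against 45.3, 39.1, 57.8 and 38.6 CPM in sham (0.73, SE 0.30, adjusted p = 0.315), and ASC 4 lay at the level of the lowest sham library. Its copy Gm43247 had 88.0, 75.2, 97.8 and 56.4 CPM in ASC, against 96.1, 57.4, 81.4 and 86.7 CPM in sham (-0.02, SE 0.19, adjusted p = 0.979). Summed with all 37 copies, the family had 292, 212, 284 and 192 CPM in ASC, against 222, 178, 204 and 225 CPM in sham (0.25, SE 0.14, adjusted p = 0.462). The families of Rpl24 (0.43, SE 0.25, adjusted p = 0.450) and Rpl17 (0.24, SE 0.14, adjusted p = 0.448) were also positive in sum. The Rpl24 sum remained low, at 5.87 ± 0.52 CPM in ASC and 4.40 ± 1.63 CPM in sham (SD). It held 3 of the 5 genes that share windows with Rpl24.

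**Figure D3:**
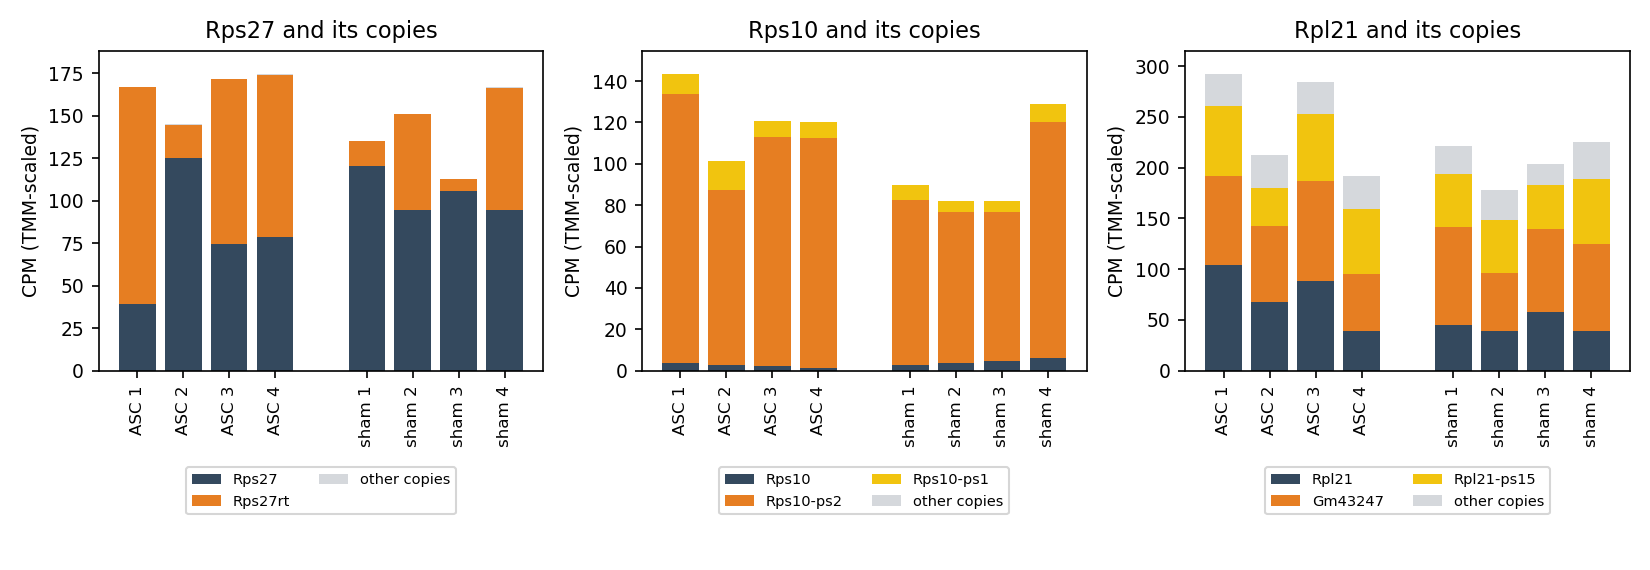
Stacked CPM in each library of Rps27, Rps10 and Rpl21 (dark) and of the copies that share 100 coding bases or more with them (colours and grey), ASC libraries left and sham libraries right. The split between Rps27 and Rps27rt differs between libraries, and the sum of the Rps27 family runs from 113 to 174 CPM. Nearly all counts of the Rps10 family, taken without RPS10-NUDT3, are in its copies, mostly Rps10-ps2.

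With each of the 76 genes summed with its copies, 75 had a positive log2 fold change, 0 passed edgeR's test and 28 had an unadjusted p under 0.05, all with higher values in ASC (background 6.95% higher). The median was 0.28 and the values ran from -0.12 to 0.51, against -0.79 to 0.73 before summing. The remaining negative one was Rps27a, made as a fusion of ubiquitin and a 40S protein. Rps27a alone had 289, 157, 226 and 139 CPM in ASC, against 234, 239, 167 and 271 CPM in sham (-0.17, SE 0.24, adjusted p = 0.801), ASC 1 being the highest library of all and ASC 4 the lowest; only 4.88% of its family's counts were in copies.

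**Figure D4:**
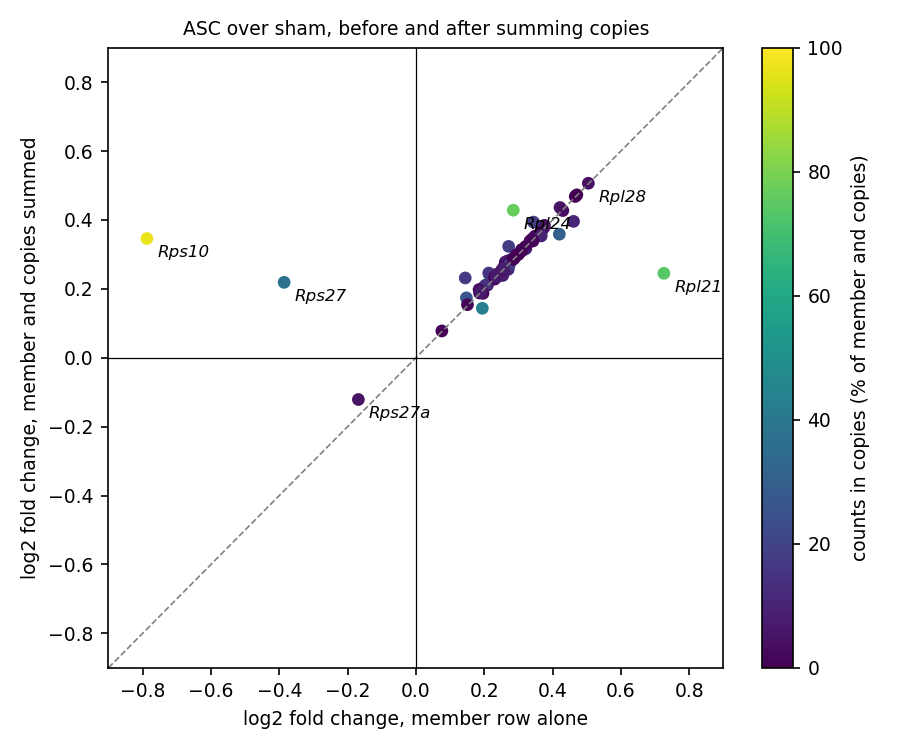
Log2 fold change (ASC over sham) of each of the 76 genes from its own row (horizontal) and from its counts summed with those of its copies (vertical); colour gives the percentage of the counts that lay in copies and the dashed line marks equal values. Rps10, Rps27 and Rpl21 move into the band of the other genes, and Rps27a stays below 0 at -0.12.

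Rpl22, Rpl30 and Rps12 had the smallest positive values. Rpl22, a 60S protein that is not needed for protein synthesis in most mouse tissues, had 250.4, 249.9, 232 and 182 CPM in ASC, against 217, 234, 175 and 241 CPM in sham (0.08, SE 0.13, adjusted p = 0.837). Its log2 fold change was -0.02 without sham 3 and -0.04 with library totals alone. Its paralog Rpl22l1, which Rpl22 represses in mouse cells, had 26.3, 17.6, 24.99 and 22.4 CPM in ASC, against 13.4, 14.5, 14.1 and 22.0 CPM in sham (0.52, SE 0.18, adjusted p = 0.205), so that 3 sham libraries were below all ASC libraries and sham 4 among them. Rpl30, whose yeast form controls its own splicing, had 158, 142, 216 and 138 CPM in ASC, against 182, 182, 111 and 117 CPM in sham (0.14, SE 0.21, adjusted p = 0.801), and the sham libraries fell into a high and a low pair. Rpl30 was at -0.02 without ASC 3. Rps12, a 40S protein, had 244, 266, 279 and 219 CPM in ASC, against 217, 223, 169 and 302 CPM in sham (0.15, SE 0.16, adjusted p = 0.722), and sham held both its highest and its lowest library.

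Ribosomal protein genes and paralogs outside the symbol rule had log2 fold changes that ran from -0.26 for Rpl7l1 to 1.19 for Rps27rt. Rps3a1, of the 40S subunit, had 748, 616, 653 and 571 CPM in ASC, against 528, 561, 442 and 615 CPM in sham (0.27, SE 0.13, adjusted p = 0.367). Fau had 254, 234, 219 and 242 CPM in ASC, against 192, 186, 143 and 249 CPM in sham (0.30, SE 0.14, adjusted p = 0.354); it encodes a ubiquitin-like protein fused to a ribosomal protein. In both of them sham 4 was the sham library that reached the ASC values. Rps27l, a paralog known as a p53 target, had a mean of 39.0 ± 3.92 CPM in ASC and 34.9 ± 6.995 CPM in sham (0.16, SE 0.14, adjusted p = 0.630), and Rpl7l1 a mean of 42.0 ± 2.78 CPM in ASC and 50.3 ± 8.72 CPM in sham (-0.26, SE 0.12, adjusted p = 0.361). The retrocopy Rpl37rt had a log2 fold change of 0.19 (SE 0.23, adjusted p = 0.756), and -0.05 without ASC 2. Rpl3l, the form of Rpl3 used in striated muscle, had 5 counts over the ASC libraries and 0 in sham, and Rpl39l, a testis form, 2 counts in ASC and 1 in sham, too few to be tested. Of the 9 such genes tested, 0 passed the test (edgeR), DESeq2 called 0, and the median was 0.27. At an unadjusted p of 0.05, 1 had higher values (background 6.82%).

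Other genes of translation were counted from lists chosen by function, and edgeR called 0 genes of each list unless stated otherwise. The background for these lists and those below is the share over all genes tested. It was 51.4% above 0 and 1.02% called by edgeR. At an unadjusted p of 0.05 (edgeR) it was 6.82% higher and 7.90% lower, and by DESeq2 2.12% higher and 1.62% lower. Of 16 elongation factors and other TOP mRNAs, 13 lay above 0 in log2 fold change, and the median was 0.25; 6 had higher and 0 lower values at an unadjusted p of 0.05, and DESeq2 called 2. Eef1a1, the main elongation factor, had 6454, 4663, 5918 and 4587 CPM in ASC, against 4502, 4577, 4115 and 4986 CPM in sham (0.25, SE 0.15, adjusted p = 0.488), again with sham 4 the highest sham library. All 7 host genes of small nucleolar RNAs, which also begin with a TOP tract, were positive with a median of 0.28, 2 of them higher at an unadjusted p of 0.05 and 0 by DESeq2; Gas5 had a mean of 162 ± 12.5 CPM in ASC and 139.7 ± 26.8 CPM in sham (0.21, SE 0.13, adjusted p = 0.488).

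Genes that build or regulate ribosomes did not share that median. The 37 ribosome biogenesis genes had a median of -0.04, with 15 positive, 0 higher and 2 lower at an unadjusted p of 0.05 and 0 called by DESeq2; Ncl, nucleolin, had a mean of 318 ± 44.0 CPM in ASC and 292 ± 16.8 CPM in sham (0.12, SE 0.11, adjusted p = 0.668; -0.01 with library totals alone). The 15 initiation and mTORC1 genes had a median of -0.02, with 5 positive, 0 higher and 2 lower at an unadjusted p of 0.05 and 1 called by DESeq2; Mtor had a mean of 303 ± 67.4 CPM in ASC and 323 ± 20.6 CPM in sham (-0.09, SE 0.15, adjusted p = 0.816; 0.01 without ASC 2). The 77 tested genes of mitochondrial ribosomal proteins had a median of 0.03, with 0 called by edgeR, 1 by DESeq2, and 5 higher and 2 lower at an unadjusted p of 0.05. Mrps6, the most abundant, had a mean of 64.5 ± 8.76 CPM in ASC and 65.0 ± 9.96 CPM in sham (-0.01, SE 0.13, adjusted p = 0.979), with a sign that changed as single libraries were left out. The differences between these medians and that of the 76 genes were not tested.

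Nuclear-encoded respiratory chain subunits, which are short and abundant as well, had a median of 0.17 over 84 tested genes. Of these, 74 had a log2 fold change above 0 (background 51.4%), and DESeq2 called 4. At an unadjusted p of 0.05, 16 had higher and 1 lower values (backgrounds 6.82% and 7.90%). In edgeR's test 1 passed: Ndufa4, a subunit of cytochrome c oxidase, rose to 83.4, 73.4, 68.4 and 84.0 CPM in ASC, against 47.1, 55.1, 49.0 and 62.2 CPM in sham (0.54, SE 0.11, adjusted p = 0.0424). Pseudogenes of the Rpl and Rps families were taken here by symbols with the suffix -ps, which leaves out copies named otherwise, such as Gm43247. Among the 75 tested the median was 0.33, and 1 passed edgeR's test: Rpl14-ps1 rose to 109.8, 89.2, 86.7 and 90.4 CPM in ASC, against 67.8, 65.9, 52.7 and 69.7 CPM in sham (0.55, SE 0.11, adjusted p = 0.0395). Its parent gene Rpl14, which shares 60.87% of its windows of 100 coding bases with it, had 452, 342, 445 and 352 CPM in ASC, against 325, 319, 284 and 391 CPM in sham (0.27, SE 0.13, adjusted p = 0.378). Both calls were lost with limma-voom and with library totals alone. When single libraries were left out, the count of each of these 2 lists fell to 0 for some libraries and stayed at 1 for others. Of 8 genes of the p53 response to free ribosomal proteins, 0 passed edgeR's test, 2 had higher values at an unadjusted p of 0.05, DESeq2 called 1, Ccng1, and the median was 0.07. Ccng1, a p53 target, had 394, 134, 274 and 219 CPM in ASC, against 134, 128, 137 and 178 CPM in sham (0.83, SE 0.30, adjusted p = 0.263).

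**Figure D5:**
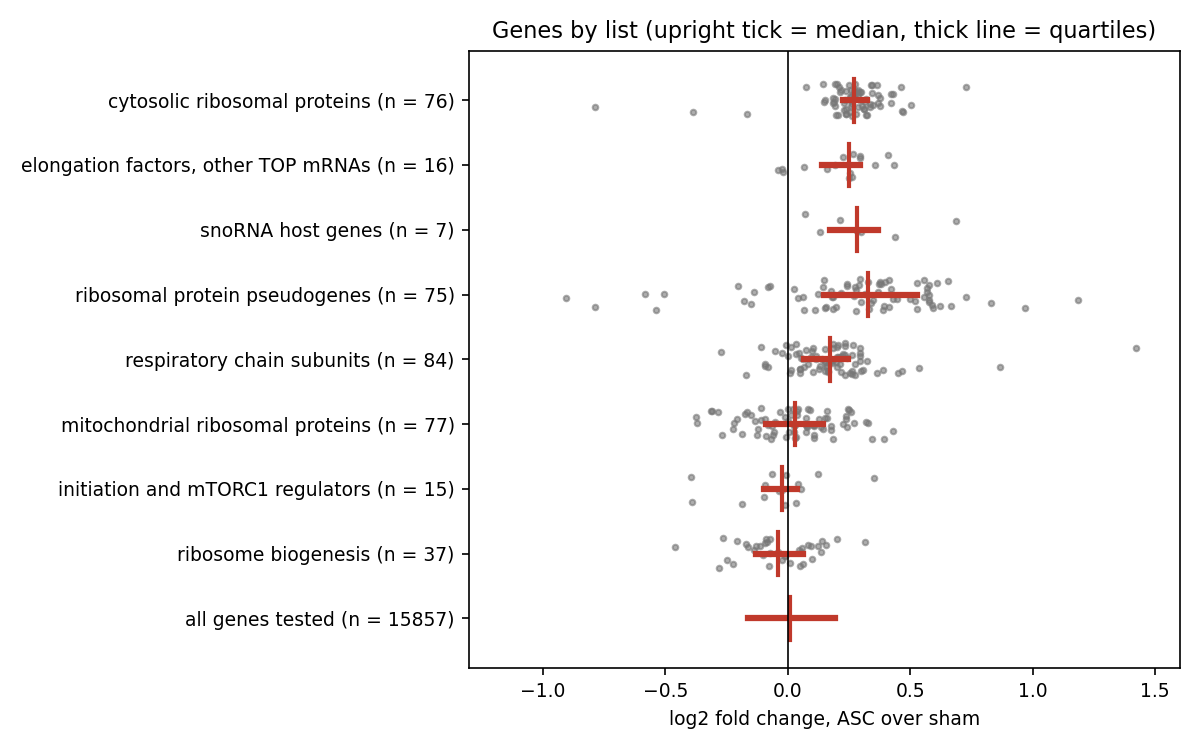
Log2 fold change (ASC over sham) of every tested gene of each list as grey points, with the median as an upright red tick and the quartiles as a thick red line; for all genes tested only the median and quartiles are drawn. The cytosolic ribosomal proteins (median 0.27) and the TOP mRNAs (0.25) lie right of the mitochondrial ribosomal proteins (0.03), the biogenesis genes (-0.04) and all genes tested (0.008); 0 of the 76 ribosomal protein genes passed the test.

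Ribosomal protein genes with short and long annotated transcripts differed most in ASC 2 and ASC 1, in opposite directions, and the difference was not tested. The median annotated length is a rough guide to the message. It put Rps20 (3706 bases, with a coding sequence of 357) in the longest group and Rpl3 (816 bases, with a coding sequence of 1209) in the middle one. With the 76 genes divided by transcript length into 3 groups, the median log2 deviation from each gene's average over libraries was 0.15 for the 26 shortest genes (up to 612 bases) and 0.00066 for the 25 longest (854 bases or more) in ASC 2. In ASC 1 it was 0.23 for the shortest and 0.34 for the longest. In the other libraries the shortest minus the longest lay between -0.08 and 0.04, and the median log2 fold change was 0.30 for the shortest, 0.27 for the middle and 0.25 for the longest group. Rps29, a short zinc finger protein of the 40S subunit named here after its values were seen, had 102, 247, 121 and 119 CPM in ASC, against 149, 134, 75.8 and 136 CPM in sham (0.25, SE 0.33, adjusted p = 0.784), with ASC 2 the highest of all libraries.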

How the data were processed

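Per the labels' protocols, poly-A RNA was selected and random-primed libraries of 370 to 420 bp fragments were sequenced. The authors deposited raw read counts per gene, and the submitters' processing notes name featureCounts 1.5.0-p3 and HISAT2 2.0.5, with fastp and CASAVA. No build, annotation, strand setting or rule for reads matching several genes is given in the sources used here. Of 54532 gene IDs, 54495 were matched to GENCODE mouse release 21 for symbols, gene types and median transcript length. The genes and lists were chosen with earlier results of these data known.

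Counts were filtered with filterByExpr, scaled by TMM and tested with edgeR 4.0.16 (robust quasi-likelihood F test, ASC over sham, no covariate, R 4.3.3), adjusted by Benjamini-Hochberg over all 15857 genes at 0.05. Levels are CPM of the TMM-scaled library size. The procedure was tested on simulated data. Named were the 6 largest and 6 smallest log2 fold changes, the 6 highest and 4 lowest levels per kilobase, any gene with no overlap between groups, fixed genes (Rplp0, Rplp1, Rplp2, Rpsa, Rps6, Rps19, Rpl5, Rpl11, Rpl22 and paralogs) and 1 to 3 genes per list. Rpl17, Rpl38, Rps28, Rps29 and Rpl14, the copies and the genes called by other tools were chosen after their values were seen. One gene of the list outside the symbol rule is not reported here. Alternatives were DESeq2 1.42.0, limma-voom 3.58.1, other scalings and filters, a threshold of 0.01, a replicate block and each library left out. Summing genes with copies, and leaving out sham 3 and 4 together, were chosen after seeing the data. There were no molecular identifiers, so precision of counting applies to reads and not to molecules.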

Additional observations from a re-analysis of the deposited data

Results flagged for a closer look

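In each group of 4 libraries, the highest and the lowest value of the ribosomal protein genes, their summed levels and the other named genes were checked for a gap to the nearest library of more than 0.829 of the group's range (Dixon's 95% critical value). Of 208 groups checked 8 stood out, a smaller share than the 5% or so that chance alone would give. ASC 2 held 5 of them. Rps29 was at 247 CPM in ASC 2 against 102 to 121 CPM in the other ASC libraries, Rps28 at 125 CPM against 69.6 to 75.5 CPM, and Rpl38 at 142 CPM against 92.7 to 99.6 CPM. These 3 are among the shortest ribosomal protein messages. Rpl28 was low in ASC 2, at 288 CPM against 351 to 354 CPM in the other ASC libraries, and so was the pseudogene Rpl21-ps15, at 37.1 CPM against 63.8 to 68.4 CPM.

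Rpl17, a 60S protein with 74.2% of its family's counts in copies, was at 134 CPM in ASC 4 against 73.4 to 81.9 CPM in the other ASC libraries, and its family sum there was 354 CPM, within the ASC range of 299 to 419 CPM. Rpl14-ps1 was at 109.8 CPM in ASC 1 against 86.7 to 90.4 CPM in the other ASC libraries. Rpl22l1 was at 22.0 CPM in sham 4 against 13.4 to 14.5 CPM in the other sham libraries, the library in which 68 of the 76 ribosomal protein genes were also at their highest sham level. The causes were not tested.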

How the results depend on the processing

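The median log2 fold change of the 76 genes was positive under all alternatives run, from 0.16 with library totals alone to 0.38 without sham 4, and single libraries left out gave 0.18 to 0.38. The count of the 76 genes called stayed 0 except with DESeq2 (4) and without a low-count filter (7: Rpl23a, Rpl26, Rpl28, Rpl34, Rpl35a, Rplp2 and Rps3). Over all genes, 162 were called, against 593 with DESeq2, 107 with limma-voom, 712 without the filter, 44 at a threshold of 0.01, 43 without sham 3 and 4, and 56 to 228 with single libraries left out. With DESeq2, 1 gene was called of the 40S, 3 of the 60S, 1 of the P stalk, 2 of the TOP mRNAs, 1 of the initiation and mTORC1 genes, 1 of the mitochondrial ribosomal proteins, 4 of the respiratory chain and 1 of the p53 list. Without the filter these were 1 of the 40S, 6 of the 60S, 1 of the P stalk, 1 of the TOP mRNAs, 2 of the initiation genes, 6 of the respiratory chain and 1 of the p53 list, with 2 of the anemia genes, 1 of the genes outside the symbol rule, 1 of the small nucleolar RNA hosts and 3 of the pseudogenes. A minimum of 10 counts gave 2 of the respiratory chain. The single calls of the respiratory chain and of the pseudogenes went to 0 with limma-voom, library totals alone, the 0.01 threshold and sham 3 and 4 left out. With copies summed the called pseudogene, Rpl14-ps1, was added to Rpl14 and had no row to be called. With single libraries left out the counts of the respiratory chain and of the pseudogenes were each 0 to 1. So were those of the small nucleolar RNA hosts and the p53 list. Signs turned for Rpl22 (-0.0408) and Ncl (-0.00528) with library totals alone, for Rps10 (0.35) and Rps27 (0.22) with copies summed, and for Rpl30 (-0.15) without sham 3 and 4. With single libraries left out Rpl22 ran from -0.0152 to 0.167, Rpl30 from -0.0192 to 0.258, Mrps6 from -0.104 to 0.0778, Mtor from -0.232 to 0.0108 and Rpl37rt from -0.0520 to 0.295. The causes were not tested.

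Same-numbered ASC and sham libraries had deviations correlated at 0.22, 0.06, 0.21 and -0.09 over all genes. Differently numbered libraries were not compared in this way, so these values do not settle whether same-numbered samples share more than a number. With the replicate number as a block, 0 of the 76 genes and 169 of all genes were called, the median of the 76 was 0.28, and 1 small nucleolar RNA host was called.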
